A study of Mus musculus with 6 samples.

Results

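Complement is a cascade of plasma and membrane proteins, and the mRNA levels of 9 of its genes in mouse heart are described here. The 9 genes were chosen by name, with earlier results of these data known. They are complement components and regulators that heart tissue can make: C1ra, C1s1, C4b, C3, Cfb, Cfd, C7, Serping1 and Cd55. Of these, 8 had values among the 16229 listed genes, and the same 8 were among the 12981 genes tested. Cfb, which encodes the alternative-pathway protease factor B, was not analysed here.

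Liver makes most of the complement in plasma, but fibroblasts, macrophages, fat cells and other tissue cells make part of it locally. In the classical pathway C1q carries the proteases C1r and C1s. C1r activates C1s, which cuts C4 and C2, and the products form an enzyme that splits C3. C3 is the component on which the classical, lectin and alternative pathways meet. Factor D starts the alternative pathway by cutting factor B, and C7 takes part in the terminal pore. C1 inhibitor blocks C1r and C1s and also proteases of the contact system of coagulation. Cd55, or decay-accelerating factor, sits on cell membranes and takes apart the enzymes that split C3. Complement is known to deposit on heart muscle that has lost and regained its blood flow.

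RNA-seq of poly-A RNA covered 6 heart samples, from male mice of the inbred strain C57BL/6 aged 8 to 10 weeks. There were 2 samples from mice given rivaroxaban, an inhibitor of coagulation factor Xa, at 3 mg/kg for 7 days. Another 2 came from mice given dabigatran, an inhibitor of thrombin (factor IIa), at 10 mg/kg for 7 days, and 2 came from untreated mice. The series concerns ischemia-reperfusion injury of the heart, and the protocol describes the samples as infarcted tissue with the tissue around it. Whether untreated mice were operated on, and whether a group's samples are separate mice, is not in the labels. The p-values therefore measure only the spread between these samples. With 1 dose per drug, and the doses unlike, drug and dose cannot be told apart in the comparison between the drugs. No group is listed as given vehicle alone. Drug and the act of dosing therefore cannot be told apart in the comparisons with untreated mice. The samples are whole tissue, so fewer cells of a type and less RNA per cell cannot be told apart in any result.

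The libraries held 27176892 to 43798222 reads in the listed genes, with a median of 594 to 975 reads per tested gene. Levels are log2 CPM, the log2 of CPM (reads scaled to a common library size by the authors). Differences are limma's log2 fold changes, with p-values adjusted by the Benjamini-Hochberg method over the 12981 tested genes and a threshold of 0.05. Of 8 markers of heart muscle cells, 6 had values. Their summed level was 70200 to 72000 CPM with rivaroxaban, 72800 to 73300 with dabigatran and 74100 to 74700 untreated. S100a8 and S100a9, neutrophil genes usually abundant in freshly infarcted heart, lay between -2.01 and -0.65 log2 CPM in the 6 libraries. Whether these levels reflect the state of injury of the samples was not tested.

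The promoter sequences below, each the 250 bases before the transcription start in RefSeq on GRCm38.p6, are shown for 3 of the genes. C3 is the gene that passed a test, C7 had a log2 fold change of -0.48 between the drugs, and Cd55 had the lowest unadjusted p with dabigatran. Each is written 5′ to 3′ on the minus strand, the strand of its gene. Capitals mark letters that match a searched motif: TTGCNNAA in C3, as bound by C/EBP factors, and TTCNNNGAA in C7, as bound by STAT factors. The windows lie at chr17:57228137-57228386 for C3, chr15:5063774-5064023 for C7 and chr1:130462745-130462994 for Cd55.
C3: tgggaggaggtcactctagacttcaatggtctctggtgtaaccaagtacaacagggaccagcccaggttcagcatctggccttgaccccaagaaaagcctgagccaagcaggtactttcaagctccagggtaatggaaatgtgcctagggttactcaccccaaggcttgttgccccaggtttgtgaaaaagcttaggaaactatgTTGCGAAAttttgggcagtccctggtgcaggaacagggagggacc
C7: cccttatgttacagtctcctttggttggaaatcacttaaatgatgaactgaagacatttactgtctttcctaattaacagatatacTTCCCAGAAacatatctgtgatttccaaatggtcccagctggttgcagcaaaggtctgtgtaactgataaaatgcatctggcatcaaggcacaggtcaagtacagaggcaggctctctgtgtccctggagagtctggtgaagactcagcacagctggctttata
Cd55: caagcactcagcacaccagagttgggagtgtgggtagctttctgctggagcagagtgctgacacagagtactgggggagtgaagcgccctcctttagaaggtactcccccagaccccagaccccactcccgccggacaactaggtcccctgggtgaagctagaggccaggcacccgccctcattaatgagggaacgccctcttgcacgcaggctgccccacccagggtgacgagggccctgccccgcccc

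The C3 match, TTGCGAAA, lay 45 to 38 bases before the start, and the C7 match, TTCCCAGAA, lay 164 to 156 bases before it. The search covered both strands and also the NF-kB and glucocorticoid receptor motifs. TTGCNNAA was present in 9.56% of 32851 RefSeq promoter windows of 250 bases, TTCNNNGAA in 7.02%, the NF-kB motif in 1.41% and the glucocorticoid receptor motif in 0.0365%. Of the 8 genes, 6 had a promoter in the RefSeq table, and the third match was TTAGGCAA in C1s1, the C/EBP motif read on the other strand, 242 to 235 bases before the start. C1s1 had a second listed start, whose window held no match, and the windows of C1ra, Cfd and Cd55 held no match. No matches overlapped. A match is a run of letters and not evidence of binding.

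Of the 8 genes, C3 was lower in rivaroxaban-treated than in untreated hearts, and the other 7 did not pass the test in any of the 3 comparisons. C3 was at 0.737 of the untreated level with rivaroxaban. With dabigatran, C4b, Cfd and C7 had the highest log2 fold changes (0.38, 0.33 and 0.28) and Cd55 the lowest (-0.33), and none of these 4 passed. The 1 called gene of 8 with rivaroxaban stands beside 2.46% of the tested genes called in that comparison. With dabigatran 0 of 8 passed, where 1.88% of the tested genes did, and between the drugs 0 of 8 passed, where 0.077% did. The unadjusted p was under 0.05 for 1, 1 and 3 of the 8 genes with rivaroxaban, with dabigatran and between the drugs, beside 17.2%, 14.7% and 8.43% of the tested genes. Run on recovered reads with limma's voom weights, the test called 1, 0 and 0 of the 8.

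**Figure D1:**
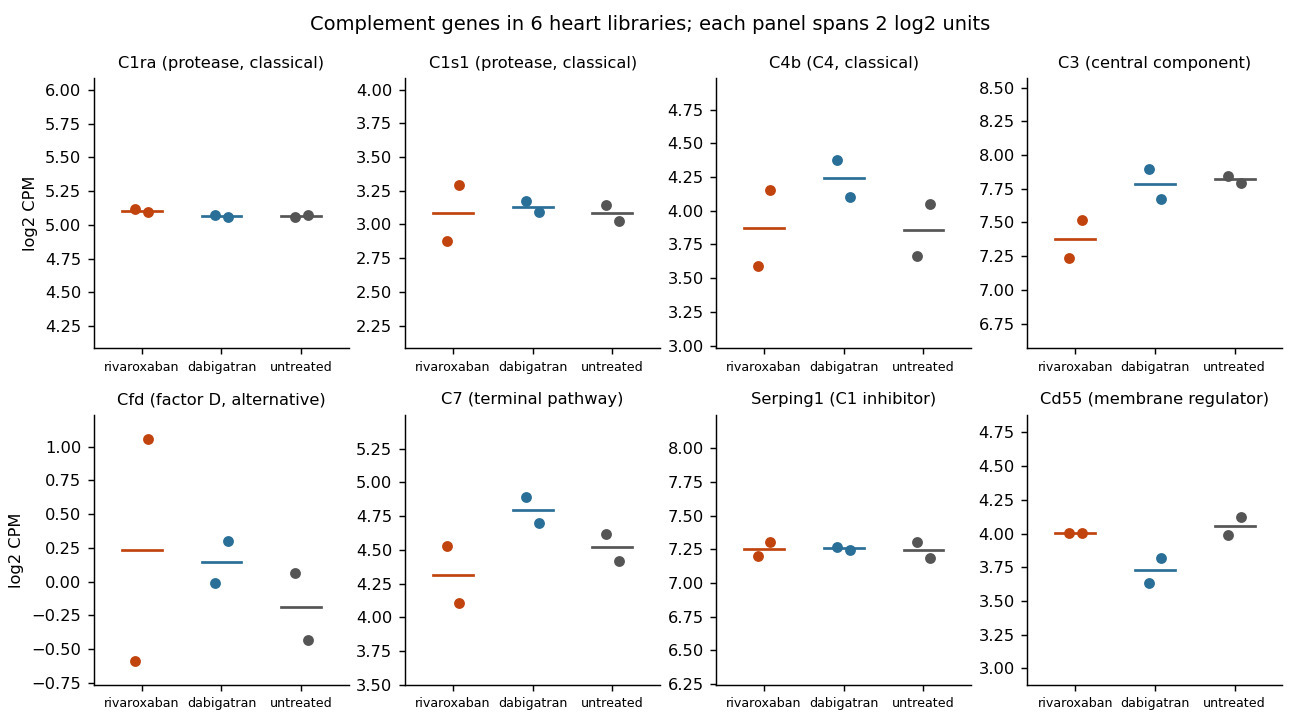
Level of each gene in log2 CPM (y axis, 2 log2 units in each panel) by group (x axis); points are libraries and lines are group means, n = 2 each. In the C3 panel both rivaroxaban-treated libraries lie below both untreated libraries, while the points for C1ra and Serping1 lie close together.

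C1ra encodes the protease C1r and C1s1 the protease C1s, which C1r activates. The 8 genes are annotated as protein-coding on GRCm38, and these 2 lie on chromosome 6, C1ra at 124512405 to 124523443 on the plus strand (ENSMUSG00000055172) and C1s1 at 124530345 to 124542359 on the minus strand (ENSMUSG00000038521). C1ra had 5.12 and 5.10 log2 CPM in the rivaroxaban-treated hearts, 5.07 and 5.06 in the dabigatran-treated hearts and 5.06 and 5.07 in the untreated hearts. Both rivaroxaban-treated libraries were above the other 4, by a small step. The log2 fold change was 0.04 with rivaroxaban (95% interval of the fold 0.931 to 1.14, adjusted p = 0.792) and -0.0021 with dabigatran (0.904 to 1.10, adjusted p = 0.993).

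C1s1 had 2.88 and 3.29 log2 CPM in the rivaroxaban-treated hearts, 3.17 and 3.09 in the dabigatran-treated hearts and 3.15 and 3.03 in the untreated hearts. The 2 rivaroxaban-treated libraries were the lowest and the highest of the 6, so the groups overlapped. The fold was 0.997 with rivaroxaban (95% interval 0.804 to 1.24) and 1.03 with dabigatran (0.831 to 1.28), with adjusted p = 0.990 and 0.923. Both genes have a near copy, C1rb and C1s2. Reads may have been split between gene and copy, and how shared reads were counted is not given in the sources used here. Of the 50-base windows of the longest transcript, 48.0% of C1ra were found unbroken in C1rb and 24.3% of C1s1 in C1s2. The copy held 36.5 to 42.1 reads for each 100 of C1ra, and 73.2 to 96.2 for each 100 of C1s1.

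C4b encodes C4, the component that C1s cuts, and lies on chromosome 17 at 34728380 to 34743882 on the minus strand (ENSMUSG00000073418). It had 3.59 and 4.16 log2 CPM in the rivaroxaban-treated hearts, 4.38 and 4.10 in the dabigatran-treated hearts and 3.67 and 4.05 in the untreated hearts. Dabigatran-treated libraries lay just above the untreated ones, and the rivaroxaban-treated ones spanned the range of the untreated. With dabigatran the log2 fold change was 0.38 (SE 0.18, unadjusted p = 0.0583, adjusted p = 0.358, limma). It was 0.19 without untreated replicate 8 and 0.57 without untreated replicate 9. With rivaroxaban it was 0.01 (95% interval of the fold 0.766 to 1.33, adjusted p = 0.981). C4a, the near copy of C4b (35.2% of windows shared), held 13.1 to 17.2 reads for each 100 of C4b. C4a had a log2 fold change of 0.57 with dabigatran (adjusted p = 0.234), in the same direction as C4b. With the reads of both genes added, the change with dabigatran was 0.41 and did not pass (adjusted p = 0.298).

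C3, the central component, lies on chromosome 17 at 57203970 to 57228136 on the minus strand (ENSMUSG00000024164). It had 7.24 and 7.52 log2 CPM in the rivaroxaban-treated hearts, 7.90 and 7.67 in the dabigatran-treated hearts and 7.84 and 7.79 in the untreated hearts. Both rivaroxaban-treated libraries were below the other 4, and the dabigatran-treated libraries lay on either side of the untreated ones. Group means were 7.38 ± 0.20, 7.79 ± 0.16 and 7.82 ± 0.04 log2 CPM with rivaroxaban, with dabigatran and untreated (SD, n = 2 each). Between 5353 and 8911 reads per library fell in C3. The 95% Poisson intervals in CPM were 147 to 155 and 178 to 188 in the rivaroxaban-treated libraries and 224 to 235 and 216 to 227 in the untreated ones. These intervals cover counting error only, and the 2 rivaroxaban-treated libraries differed by more than that.

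C3 fell by 0.44 on the log2 scale with rivaroxaban against untreated (SE 0.09, fold 0.737, 95% interval 0.641 to 0.848, adjusted p = 0.0325). With dabigatran against untreated the log2 fold change was -0.03 (fold 0.977, 95% interval 0.850 to 1.12, adjusted p = 0.908). The drugs were also compared with each other: C3 was at 0.754 of its dabigatran level with rivaroxaban (95% interval 0.656 to 0.867), with unadjusted p = 0.00102 and adjusted p = 0.223 (limma), which did not pass. A response of C3 to rivaroxaban that differs from that to dabigatran was therefore not shown at this threshold.

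The C3 call rested on few libraries. It was lost without rivaroxaban replicate 14 (log2 fold change -0.30, adjusted p = 0.186), without untreated replicate 8 (-0.41, adjusted p = 0.172), without untreated replicate 9 (-0.47, adjusted p = 0.0881), and in limma without the mean-variance trend (adjusted p = 0.227). It was kept without rivaroxaban replicate 15 (-0.58, adjusted p = 0.0275) and without either dabigatran library.

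**Figure D2:**
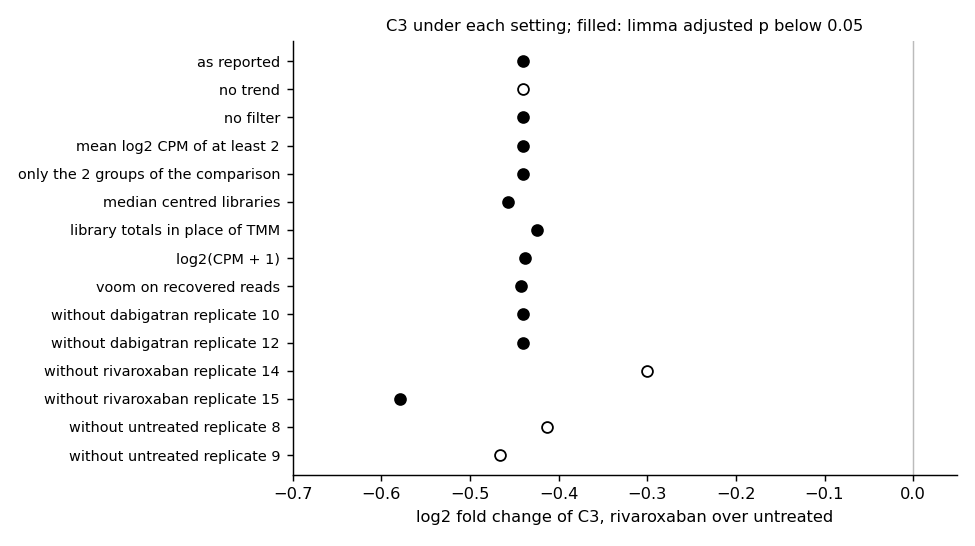
Log2 fold change of C3, rivaroxaban over untreated (x axis), under each setting (y axis); filled points have a limma adjusted p below 0.05. The change stays below 0 in each setting shown, from -0.58 to -0.30, and 4 settings lose the call.

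Cfd encodes factor D, known also as adipsin for its high level in fat cells, and lies on chromosome 10 at 79890853 to 79892655 on the plus strand (ENSMUSG00000061780). It had -0.59 and 1.06 log2 CPM in the rivaroxaban-treated hearts, -0.01 and 0.30 in the dabigatran-treated hearts and 0.06 and -0.43 in the untreated hearts. The rivaroxaban-treated libraries were the lowest and the highest of the 6. They held 22 and 59 Cfd reads, with 95% Poisson intervals of 0.379 to 0.915 and 1.54 to 2.61 CPM that do not overlap. The fold was 1.34 with rivaroxaban (95% interval 0.659 to 2.72, adjusted p = 0.679) and 1.26 with dabigatran (0.619 to 2.55, adjusted p = 0.796). Both intervals include a 2-fold difference.

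Fat-cell markers of low level also differed between the rivaroxaban-treated libraries. Car3 had -1.83 log2 CPM in replicate 14 and 1.36 in replicate 15, the lowest and the highest of the 6 libraries, as for Cfd. Cidec had -2.80 and -0.72, Plin1 -2.80 and -1.31, and Retn -3.50 and -2.34, and replicate 14 was the lowest library for each. These values lie near the lowest listed value of -4.04 and rest on 3 and 16 reads for Cidec, 3 and 10 for Plin1 and 1 and 4 for Retn. Retn also had 1 read in dabigatran replicate 10, so its lowest place in replicate 14 follows from the larger library. Adipoq did not have this order, with -1.98 and -1.58 in these libraries and its lowest value, -2.44, in untreated replicate 9. Of 9 fat-cell markers 8 had values and 4 were tested, and their summed level was 6120 to 6230 CPM with rivaroxaban, 6690 to 7090 with dabigatran and 6220 to 6310 untreated. Most of this sum was Fabp4 and Lpl, which other heart cells also express. Pparg, a regulator of fat-cell genes, was higher with rivaroxaban (log2 0.58, adjusted p = 0.0353). This call was lost without rivaroxaban replicate 14 or 15 or untreated replicate 9 (log2 0.63, 0.54 and 0.43) and without the trend. With dabigatran the log2 fold change of Pparg was 0.46 (adjusted p = 0.0978, limma), and the 4 treated libraries were above the untreated ones. Rivaroxaban against dabigatran it was 0.12 (adjusted p = 0.850, limma). The part of fat in the spread of Cfd was not tested.

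**Figure D3:**
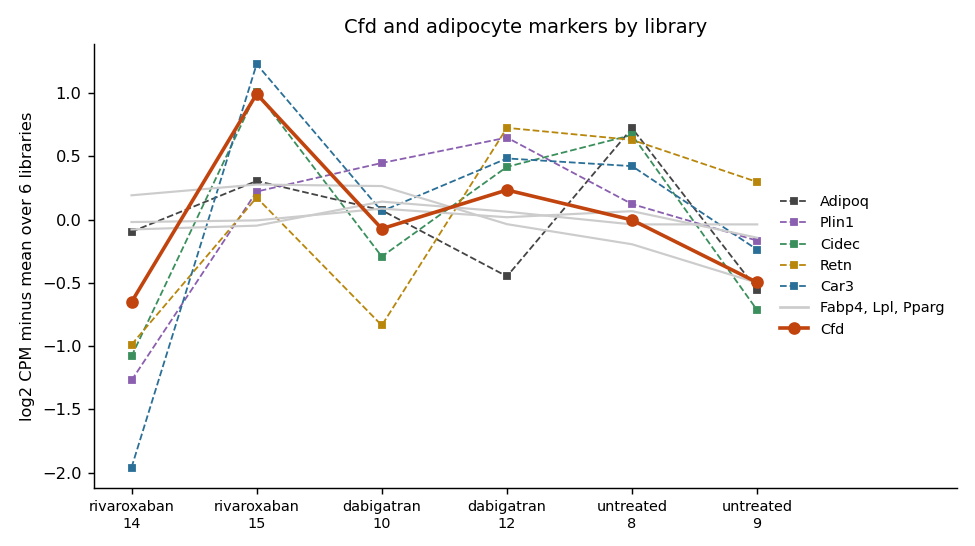
Level of Cfd (thick line) and of fat-cell markers in each library (x axis), as log2 CPM minus the gene's mean over the 6 libraries (y axis). Cfd, Car3 and Cidec are lowest in rivaroxaban replicate 14 and highest in rivaroxaban replicate 15, while Adipoq and the more abundant Fabp4, Lpl and Pparg do not have this order.

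C7, a component of the terminal pore, lies on chromosome 15 at 4988762 to 5063740 on the minus strand (ENSMUSG00000079105). It had 4.53 and 4.11 log2 CPM in the rivaroxaban-treated hearts, 4.89 and 4.70 in the dabigatran-treated hearts and 4.62 and 4.42 in the untreated hearts. The dabigatran-treated libraries were above the other 4, and the rivaroxaban-treated and untreated ones overlapped. Against untreated, the log2 fold change was -0.20 with rivaroxaban (fold 0.869, 95% interval 0.711 to 1.06, adjusted p = 0.455) and 0.28 with dabigatran (fold 1.21, 95% interval 0.992 to 1.48, adjusted p = 0.357). Between the drugs, C7 with rivaroxaban was at 0.717 of its dabigatran level (95% interval 0.587 to 0.876), with unadjusted p = 0.00384 and adjusted p = 0.315 (limma). This log2 fold change of -0.48 was -0.27 without rivaroxaban replicate 15 and -0.69 without rivaroxaban replicate 14. The change with dabigatran against untreated lay between 0.18 and 0.38 with 1 library left out.

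Serping1, the gene of C1 inhibitor, lies on chromosome 2 at 84765387 to 84775444 on the minus strand (ENSMUSG00000023224). It had 7.20 and 7.30 log2 CPM in the rivaroxaban-treated hearts, 7.27 and 7.25 in the dabigatran-treated hearts and 7.30 and 7.19 in the untreated hearts. The groups overlapped, and the dabigatran-treated libraries lay inside the range of the untreated. The 95% intervals of the fold were 0.919 to 1.10 with rivaroxaban and 0.922 to 1.11 with dabigatran against untreated, and 0.909 to 1.09 between the drugs. These are the narrowest intervals among the 8 genes, and the adjusted p was 0.957, 0.940 and 0.989.

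Cd55 lies on chromosome 1 at 130439027 to 130462744 on the minus strand (ENSMUSG00000026399). It had 4.01 and 4.0 log2 CPM in the rivaroxaban-treated hearts, 3.63 and 3.82 in the dabigatran-treated hearts and 3.99 and 4.12 in the untreated hearts. Both dabigatran-treated libraries were below the other 4. With dabigatran the log2 fold change was -0.33 (SE 0.10, fold 0.798, 95% interval 0.688 to 0.925), with unadjusted p = 0.00659 and adjusted p = 0.139 (limma), which did not pass. With rivaroxaban it was -0.05 (adjusted p = 0.832). Between the drugs Cd55 with rivaroxaban was 1.21 times its dabigatran level (95% interval 1.04 to 1.41, unadjusted p = 0.0162, adjusted p = 0.463, limma). The copy Cd55b shares 10.7% of the windows of Cd55 and held 7.56 to 10.3 reads for each 100 of Cd55. With its reads added the change with dabigatran was -0.32 (adjusted p = 0.134), and with 1 library left out that of Cd55 alone lay between -0.42 and -0.23.

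Across the 8 genes the median log2 fold change was 0.0019 with rivaroxaban, 0.029 with dabigatran and -0.027 between the drugs, beside medians of 0.0051, 0.0026 and 0.0011 over the tested genes. The libraries of the groups did not overlap for 2 of 8 genes with rivaroxaban against untreated (C3 lower, C1ra higher), beside 50.6% of the tested genes. With dabigatran against untreated they did not overlap for 3 of 8 (C4b and C7 higher, Cd55 lower), beside 43.6%. Between the drugs they did not overlap for 4 of 8 (C3 and C7 lower, C1ra and Cd55 higher with rivaroxaban), beside 39.7%. The share of the 8 genes was thus below that of the tested genes in both comparisons with untreated hearts, and above it by less than 1 gene between the drugs. The 3 comparisons share samples.

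**Figure D4:**
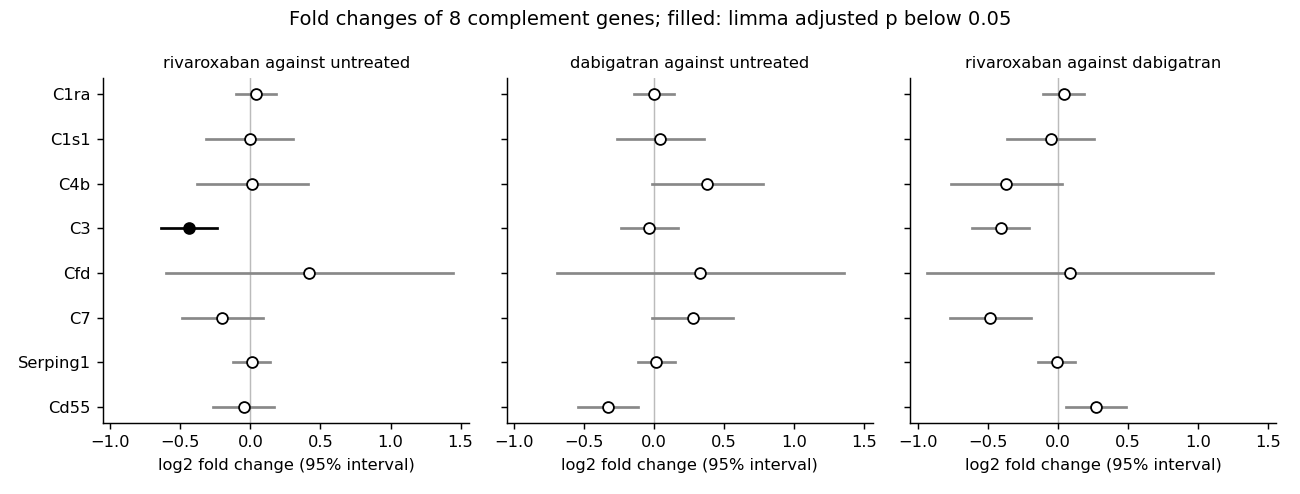
Log2 fold change of each gene (x axis) with its 95% interval (lines) in the 3 comparisons; filled points have a limma adjusted p below 0.05. C3 with rivaroxaban against untreated is the 1 filled point, and the widest intervals belong to Cfd.

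Levels were compared between genes as CPM per kb of exon, on a linear scale over the 6 libraries. The length was that of all annotated exons of a gene merged, for Cd55 4853 bases beside 3133 in its longest transcript. The order of genes with near levels can depend on this choice of length. Reads of the near copies C1rb, C1s2, C4a and Cd55b were not added. Serping1 had the highest level of the 8, with a mean of 65.6 CPM per kb (lowest 62.6, highest 68.0), followed by C3 with 39.8 (29.4 to 46.3). C1ra followed with 11.3 (11.1 to 11.6) and C7 with 8.81 (6.41 to 11.1). These 4 were in the same order in each library, although the ranges of C1ra and C7 nearly met. Cd55 had 3.14 (2.55 to 3.57), C4b 2.83 (2.10 to 3.63) and C1s1 2.73 (2.33 to 3.11), 3 neighbours whose ranges overlapped. Cfd was lowest with 1.16 (0.656 to 2.19), and its range overlapped the lower end of C4b.

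**Figure D5:**
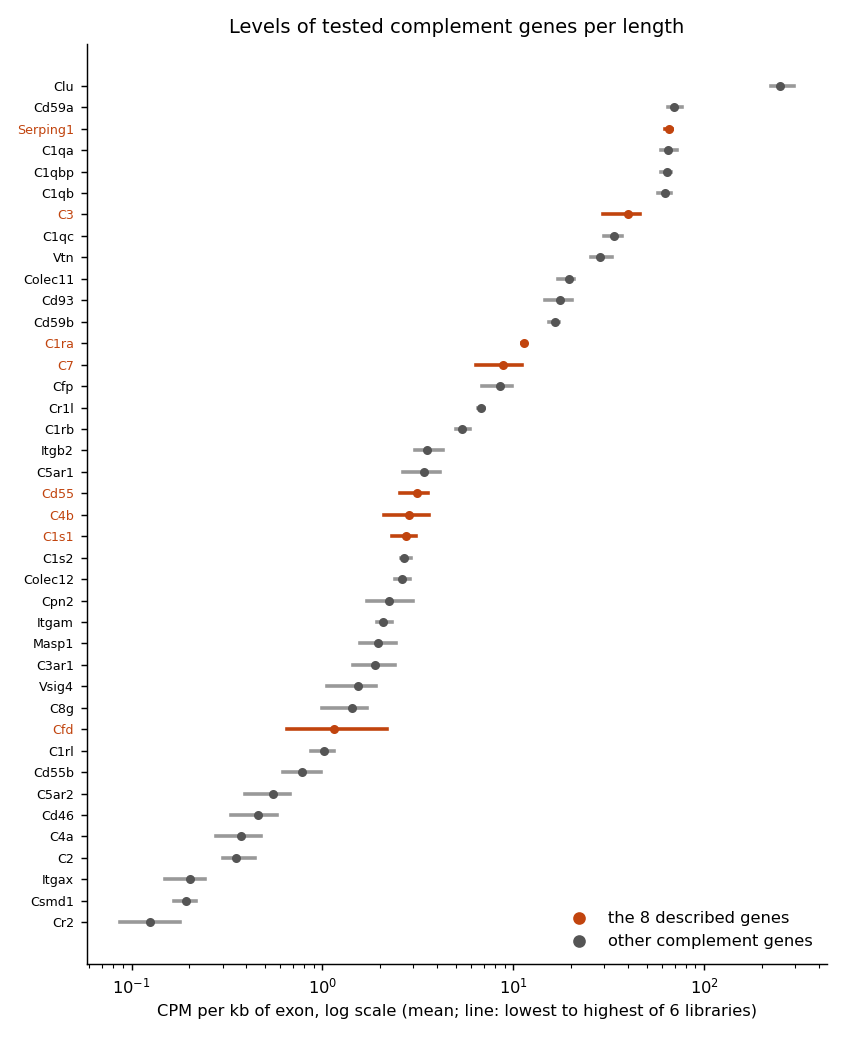
Level in CPM per kb of exon (x axis, log scale) of the 8 described genes and other tested complement genes (y axis); points are means and lines run from the lowest to the highest of 6 libraries. Serping1 and C3 are the highest of the 8, and Clu is the highest of those plotted.

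Other complement genes, a list of 48, were read in the same fit: 38 had values and 33 were tested. With rivaroxaban 0 of 33 passed in limma, 6 had an unadjusted p under 0.05 and the median log2 fold change was -0.0044. With dabigatran 1 of 33 passed and 7 had an unadjusted p under 0.05, with a median of -0.0078. Between the drugs 0 of 33 passed and 2 had an unadjusted p under 0.05, with a median of -0.023. Over all tested genes 2.46%, 1.88% and 0.077% passed in these comparisons, and 17.2%, 14.7% and 8.43% had an unadjusted p under 0.05. With voom the calls numbered 0, 1 and 0. At the start of the classical pathway, C1qa and C1qb, chains of the recognition molecule C1q, had log2 fold changes of -0.03 and 0.02 with rivaroxaban and -0.01 and 0.04 with dabigatran. Cfp, or properdin, which stabilises the alternative-pathway enzyme, had 3.90 and 4.09 log2 CPM with rivaroxaban, 3.99 and 3.95 with dabigatran and 3.78 and 3.58 untreated, and did not pass (adjusted p = 0.146 with rivaroxaban and 0.217 with dabigatran). C1qbp, a mainly mitochondrial protein that binds C1q, had log2 fold changes of -0.13 and -0.04, and Cd93, a surface protein of endothelium once described as a C1q receptor, had 0.03 and -0.10 with rivaroxaban and dabigatran. C8g, a chain of the terminal component C8, had a log2 fold change of 0.40 with dabigatran (adjusted p = 0.546).

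The called gene was Clu, or clusterin, a secreted chaperone that also inhibits the terminal pore. Clu had 9.59 and 9.67 log2 CPM with rivaroxaban, 9.98 and 9.88 with dabigatran and 9.59 and 9.67 untreated. Both dabigatran-treated libraries were above the other 4. Rivaroxaban against dabigatran, Clu had a log2 fold change of -0.30 (adjusted p = 0.103, limma), which did not pass. Against untreated, Clu was higher with dabigatran by 0.30 on the log2 scale (SE 0.06, adjusted p = 0.0245). The call was lost without dabigatran replicate 10 (log2 0.25, adjusted p = 0.127), without untreated replicate 8 (log2 0.26, adjusted p = 0.141) and without the mean-variance trend (adjusted p = 0.225). Its adjusted p lay between 0.0193 and 0.225 over the alternatives run. Among regulators, the membrane inhibitors Cd59a and Cr1l had log2 fold changes of 0.02 and 0.02 with dabigatran (adjusted p = 0.937 and 0.926). C3ar1, the receptor of the C3a fragment, was singled out after its values were seen. It had 2.87 and 2.65 log2 CPM with rivaroxaban, 2.80 and 3.07 with dabigatran and 3.38 and 3.25 untreated. Its log2 fold change was -0.55 with rivaroxaban (adjusted p = 0.0617, not passing) and -0.38 with dabigatran (adjusted p = 0.213). Fitted with the rivaroxaban-treated and untreated libraries alone, C3ar1 passed (adjusted p = 0.0442), and over the alternatives run its adjusted p lay between 0.0438 and 0.411.

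Of 14 regulators of complement genes, with 14 tested, 1 passed with rivaroxaban, 1 with dabigatran and 0 between the drugs, and 3, 4 and 0 had an unadjusted limma p under 0.05. The shares of all tested genes were 2.46%, 1.88% and 0.077% passing, and 17.2%, 14.7% and 8.43% by the unadjusted p. Cebpb, a C/EBP transcription factor of the acute phase, had 4.30 and 4.68 log2 CPM with rivaroxaban, 4.82 and 4.06 with dabigatran and 3.71 and 3.13 untreated. It was higher with rivaroxaban (log2 1.07, adjusted p = 0.0403), and with dabigatran its log2 fold change was 1.02 (adjusted p = 0.0579). The value with dabigatran lay between 0.64 and 1.40 with 1 library left out. Rivaroxaban against dabigatran, Cebpb had a log2 fold change of 0.05 (adjusted p = 0.976, limma). Cebpd, a related factor, had 4.59 and 4.57 log2 CPM with rivaroxaban, 4.86 and 4.72 with dabigatran and 4.24 and 3.57 untreated. It was higher with dabigatran (log2 0.88, adjusted p = 0.0270), and with rivaroxaban its log2 fold change was 0.67 (adjusted p = 0.0655). For both genes the 4 treated libraries were above the untreated ones. The Cebpb call was lost when rivaroxaban replicate 14, rivaroxaban replicate 15 or untreated replicate 9 was left out (log2 1.26, 0.88 and 0.79), with voom and without the trend, and its adjusted p lay between 0.00936 and 0.312 over the alternatives run. The Cebpd call with dabigatran was lost without dabigatran replicate 10 (log2 0.81) and without the trend, its value was 0.55 without untreated replicate 9, and its adjusted p lay between 0.00138 and 0.232. With rivaroxaban Cebpd passed with voom (log2 0.69) and without untreated replicate 8 (log2 1.01), and was 0.34 without untreated replicate 9, with an adjusted p between 0.00268 and 0.286 over the alternatives.

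Mesothelial markers, which belong to the outer lining of the heart, moved in the same comparison as C3. Of 10 such markers 9 were tested, and 7 were lower and 1 higher with rivaroxaban, with a median log2 fold change of -0.99. With dabigatran, where C3 was at 0.977 of its untreated level, 3 were lower and 1 was higher, with a median of -0.70. Of all tested genes 2.46% passed with rivaroxaban and 1.88% with dabigatran, in either direction. The markers lower with both drugs were Msln, Upk3b (log2 -0.93 with rivaroxaban and -0.76 with dabigatran) and Gpm6a (-0.73 and -0.58). Upk1b, Lrrn4, Krt18 and Krt19 were lower with rivaroxaban (log2 -0.98, -0.99, -1.45 and -1.45). With dabigatran their log2 fold changes were -0.47, -0.70, -0.34 and -0.84, also below 0, and did not pass. Rivaroxaban against dabigatran, 0 of the 9 tested markers passed, beside 0.077% of the tested genes, and the median log2 fold change was -0.34. The gene that was higher with both drugs was Wt1, which other heart cells also express. The summed level was 49.7 to 58.7 CPM with rivaroxaban, 63.2 to 65.6 with dabigatran and 89.8 to 95 untreated. Msln, a defining gene of this layer, had 2.82 and 3.15 log2 CPM with rivaroxaban, 3.38 and 3.56 with dabigatran and 4.14 and 4.29 untreated. With 1 library left out, 2 to 7 markers were lower with rivaroxaban, namely 2 without untreated replicate 8, 3 without rivaroxaban replicate 14, 4 without rivaroxaban replicate 15 or untreated replicate 9, and 7 without either dabigatran library. With dabigatran 0 to 2 were lower, namely 0 without untreated replicate 8 and 1 without dabigatran replicate 10. Without the trend 0 were lower with either drug. The part of the mesothelium in the C3 result was not tested.

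Markers of other cells that can make complement were read in the same fit. Of all tested genes 2.46% passed with rivaroxaban and 1.88% with dabigatran, and 17.2% and 14.7% had an unadjusted p under 0.05. Of 10 fibroblast markers 0 passed with either drug in limma or with voom, 1 had an unadjusted p under 0.05 with each drug, and their summed level was 3370 to 3480 CPM with rivaroxaban, 3220 to 3370 with dabigatran and 3220 to 3280 untreated. Of 10 macrophage markers 1 passed with rivaroxaban, Cd163 (log2 0.55, adjusted p = 0.0432), a call lost without rivaroxaban replicate 14 or 15 or untreated replicate 8 (log2 0.53, 0.57 and 0.34) and without the trend. With rivaroxaban 3 of the 10 had an unadjusted p under 0.05 and with dabigatran 2, and their directions were mixed. Cx3cr1 had log2 fold changes of -0.91 with rivaroxaban and -0.73 with dabigatran (adjusted p = 0.113 and 0.232), and Ccr2 had -0.41 and -0.61 (adjusted p = 0.373 and 0.217). The summed level of the macrophage markers was 231 to 266 CPM in the 6 libraries. Of 8 hepatocyte markers 3 had values, with summed levels of 3.52 to 4.69 CPM with rivaroxaban, 3.28 to 3.81 with dabigatran and 2.70 to 2.72 untreated. The higher sum came from Ahsg, which did not pass (log2 0.91 with rivaroxaban, adjusted p = 0.0745), while Apoa2 had mean levels of -0.17, -0.24 and 0.04 log2 CPM with rivaroxaban, with dabigatran and untreated. Of 8 neutrophil markers 6 had values and 2 were tested. The 6 had summed levels of 5.10 to 6.16 CPM with rivaroxaban, 4.63 to 6.67 with dabigatran and 6.74 to 7.12 untreated. Mmp9 had log2 fold changes of -0.81 and -0.64 with rivaroxaban and dabigatran (limma adjusted p = 0.078 and 0.178). Csf3r had 0.19 and 0.18, and neither gene passed. Of 8 endothelial markers 2 passed with each drug. Emcn was lower with rivaroxaban (log2 -0.43, adjusted p = 0.00336), a call lost without rivaroxaban replicate 15 (log2 -0.41). With dabigatran its log2 fold change was -0.10. Rivaroxaban against dabigatran it was -0.32 and did not pass (adjusted p = 0.103, limma). Eng was higher with rivaroxaban and with dabigatran (log2 0.26 and 0.25, adjusted p = 0.0278 and 0.0397). Flt1 was higher with dabigatran (log2 0.29, adjusted p = 0.0376), and its log2 fold change with rivaroxaban was 0.14 (adjusted p = 0.278). The Eng calls and the Flt1 call were each lost without either library of the drug concerned or either untreated library, except that Eng with dabigatran passed without dabigatran replicate 12. Eng with dabigatran was also lost without either rivaroxaban library. Of 7 pericyte and smooth muscle markers Myh11 was lower with rivaroxaban (log2 -0.34, adjusted p = 0.0416), a call lost without rivaroxaban replicate 15 (log2 -0.23) or either untreated library. Without the trend none of these calls was made. The part of these cells in the C3 result was not tested. Of the 6 tested markers of heart muscle cells 0 passed with either drug in limma or with voom, and 0 and 1 had an unadjusted p under 0.05 with rivaroxaban and dabigatran.

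The genes whose pattern over the 6 libraries was most like that of C3 were Fkbp11, Crybb1 and Tctex1d2, out of 11159 candidates. The measure was the root mean square difference of log2 CPM, each gene centred on its own mean, and it was 0.0668, 0.0780 and 0.0807. C3 itself had a root mean square difference of 0.226 from its own mean. With rivaroxaban against untreated the log2 fold changes were -0.43, -0.35 and -0.31, and none of the 3 passed (adjusted p = 0.293, 0.402 and 0.231). The genes were chosen for this likeness, so fold changes like that of C3 follow from the choice. Fkbp11 had 0.84 to 1.43 log2 CPM in the 6 libraries, Crybb1 0.86 to 1.46 and Tctex1d2 2.52 to 2.94.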

How the data were processed

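The deposited table gives 1 log2 CPM value per gene and library, which the authors scaled by TMM, per the file headers and name. Tools in the submitters' processing notes are STAR, edgeR, Trim Galore, FastQC and bcl2fastq, with the build mm10 and no versions. Which read counter and annotation were used is not given in the sources used here. Libraries were made with a directional kit from poly-A RNA, per the labels' protocols.

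Below 200 steps above the shared lowest value of -4.04, 100% of values were whole multiples of 1 step (tolerance 0.02 reads), from which reads and totals were recovered. Without molecular identifiers, reads can be copies of a molecule, so counting intervals cover counting error only. Low values are drawn toward the lowest one, which understates their fold changes.

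Genes whose mean log2 CPM reached 0 were tested with limma 3.58.1 in R 4.3.3 (3 group means, 6 libraries, trend; 3 residual and 7.75 prior degrees of freedom; two-sided; 95% intervals). The genes and lists were chosen with earlier results of these data known. The text names every chosen gene, other complement genes by role (1 is not reported here; counts include it), called regulators and markers, the defining marker Msln, markers set beside Cfd, and the 3 genes most like C3; others were chosen after their values were seen. Coordinates come from GENCODE M21, on GRCm38 (mm10). The limma fit was tested on simulated data. Alternatives changed the trend, filter, scaling, pseudocount, groups fitted and replicates, and voom and added copy reads were chosen after seeing the data.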

Additional observations from a re-analysis of the deposited data

How the results depend on the processing

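C3 with rivaroxaban was lower in each setting run, with leave-one-out log2 fold changes of -0.58 to -0.30 and adjusted p-values of 0.0169 to 0.186. Of 345 values of the 8 genes (24 results, 15 settings), 315 kept direction and side of the threshold, 26 reversed and 4, those of C3, lost the call. Without the trend 0 of the 8 genes passed with rivaroxaban, and with 1 library left out 0 to 1 did; none of the other settings moved a count of the 8 genes.

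Without the trend 0 genes were called in each comparison. With 1 library left out, 61 to 410 were called with rivaroxaban, 73 to 270 with dabigatran and 0 to 20 between the drugs. Between the drugs 10 were called, 1 at a mean log2 CPM of at least 2, 6 with the drug groups alone and 1 with library totals in place of TMM.

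Log2 values reversed, in results that did not pass, as follows. With rivaroxaban, C4b was -0.0050 with median centring and -0.0224 with voom, Serping1 and Clu were -0.0084 and -0.0156 with median centring, and C1s1 was 0.0108 with library totals. Between the drugs, Serping1 was 0.0215 with library totals and Cfd -0.0072 with voom. With copy reads added, C1ra was 0.0187 with dabigatran. The other reversals came from leaving out 1 library, for these ranges. With rivaroxaban they ran from -0.212 to 0.202 for C1s1, -0.273 to 0.297 for C4b, -0.413 to 0.0077 for C7, -0.117 to 0.0180 for Cd55, -0.402 to 1.24 for Cfd, -0.0507 to 0.0682 for Serping1 and -0.0403 to 0.0434 for Clu. With dabigatran they ran from -0.0100 to 0.0058 for C1ra, -0.0167 to 0.103 for C1s1, -0.144 to 0.0786 for C3 and -0.0447 to 0.0742 for Serping1. Between the drugs they ran from -0.255 to 0.158 for C1s1, -0.732 to 0.912 for Cfd, -0.0566 to 0.0447 for Serping1, -0.329 to 0.430 for Cebpb, -0.0400 to 0.0626 for Eng and -0.0307 to 0.270 for Pparg. The cause was not tested.

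With 1 library of a group left out, the remaining one is assumed to vary like the other groups. The planned edgeR and DESeq2 tests were not run, since the deposited values are log2 CPM and not counts. No paired analysis was possible because the groups share no replicate numbers. Cfd had 22 to 59 reads per library, the fewest of the 8 genes, and the widest intervals. Its SD was 1.16 log2 CPM with rivaroxaban, 0.216 with dabigatran and 0.349 untreated, and the source of this spread was not tested.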
